A study of Mus musculus with 4 samples.

Results

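The 39 genes described here encode the machinery that copies DNA and the enzymes that supply its building blocks. They were chosen by name, and each of the 39 names matched 1 of the 38087 genes in the count table. RNA had been sequenced from 2 cervical samples of wild-type mice (WT) and 2 of mice whose myeloid cells lack Becn1 (Becn1-M-KO, shortened to KO). The strain was C57BL/6 and the age 20 postnatal weeks in both groups. The series title calls the KO samples B cell lymphomas and the WT samples lymph node controls, so deletion and tumour cannot be told apart. The labels do not name the driver of the deletion or say whether replicates are different animals, so the p-values below may measure technical spread only. Becn1 itself is missing from myeloid cells alone and showed 454 and 1330 reads in the WT libraries against 984 and 1384 in the KO libraries, which does not check the genotype of whole tissue.

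The WT libraries differed widely in lymphocyte and salivary gene reads. WT replicate 1 had few reads of B or T cell genes, which goes against its label as lymph node, so each value set against it rests on a library of doubtful tissue. The summed level of 15 pan-B cell genes was 54.0 in WT replicate 1 and 2512 in WT replicate 2, in reads per 1e+06 reads of the library total (CPM), against 3879 and 3800 in KO. Those of 20 T cell genes were 19.5 and 1631 CPM in WT, against 1286 and 1277 in KO. All 13 salivary and epithelial genes summed to 362298 and 12015 CPM in WT, against 135 and 3839 in KO. Of 9 epithelial genes without the secreted salivary products, the sums were 1557 and 1302 CPM in WT and 30.3 and 41.0 in KO. Values set against WT replicate 2 thus also compare samples of unlike epithelial content. Krt8, an epithelial keratin, had 0 reads in KO replicate 1 and 23 in KO replicate 2. Sex-linked genes divided the groups as well, with 2088 and 5314 reads of Xist in WT and 3 and 34 in KO, so sex also went with genotype. Depth ran from 15604247 to 20067004 reads per library. The part of tissue makeup and sex in the results was not tested, and in whole tissue fewer cells of a type and less RNA per cell cannot be told apart.

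DNA replication starts when the origin recognition complex, Cdc6 and Cdt1 load the ring of Mcm2 to Mcm7 onto DNA during G1 phase. In S phase the ring is joined by Cdc45 and the GINS proteins and becomes the active helicase, and primase and the polymerases follow it. Ribonucleotide reductase, thymidylate synthase and thymidine kinase supply deoxynucleotides. Many of these genes are transcribed at the G1/S boundary under E2F transcription factors, and in lymphoid tissue they are known as markers of dividing lymphocytes.

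Promoters of 33 of the 39 genes were found in the RefSeq promoter table (GRCm38.p6, 250 bases before to 50 after each start site). The letters TTTCCCGC, TTTGGCGC, TTTGCCGC or TTTCGCGC, which are forms of the E2F consensus, were searched on both strands, and matches may overlap. They occurred in at least 1 promoter of 13 of the 33 genes (39.4%), against 704 of 27025 genes in the whole table (2.60%). With only TTTCCCGC and TTTGGCGC the shares were 30.3% and 1.80%. Counted by promoter of the same length, 33.3% of 39 member promoters and 2.26% of all 32851 held one of the 4 forms. GGGCGG, the letters of a GC box, occurred in 75.8% of the member genes and 38.2% of all genes, and CCAAT in 60.6% and 41.1%. TTTGAA, the letters of the CHR element of mitotic promoters, occurred in 15.2% and 20.2%. A match is a description of letters and says nothing of binding.

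The 200 bases before the RefSeq start site are shown for 5 genes, with E2F letters on either strand in capitals. Cdc6, Mcm5 and Mcm6 hold such letters there, and Rrm2 and Rpa1 do not, though Rrm2 differed most between KO and WT replicate 2 and Rpa1 least. The windows, in GRCm38.p6, are chr11:98907951-98908150 (+ strand) for Cdc6, chr8:75109309-75109508 (+) for Mcm5, chr1:128359706-128359905 (−) for Mcm6, chr12:24708054-24708253 (+) for Rrm2 and chr11:75348384-75348583 (−) for Rpa1.
Cdc6: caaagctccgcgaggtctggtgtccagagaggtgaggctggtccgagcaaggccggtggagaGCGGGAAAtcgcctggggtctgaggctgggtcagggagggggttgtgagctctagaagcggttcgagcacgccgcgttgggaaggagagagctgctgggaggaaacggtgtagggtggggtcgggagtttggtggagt
Mcm5: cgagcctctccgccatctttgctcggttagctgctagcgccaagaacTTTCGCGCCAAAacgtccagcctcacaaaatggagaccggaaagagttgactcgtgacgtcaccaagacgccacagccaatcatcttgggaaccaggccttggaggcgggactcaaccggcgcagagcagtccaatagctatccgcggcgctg
Mcm6: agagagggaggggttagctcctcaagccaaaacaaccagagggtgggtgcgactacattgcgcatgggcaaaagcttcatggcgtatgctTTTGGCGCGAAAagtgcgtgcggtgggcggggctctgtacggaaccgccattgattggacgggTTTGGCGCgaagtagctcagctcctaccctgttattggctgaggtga
Rrm2: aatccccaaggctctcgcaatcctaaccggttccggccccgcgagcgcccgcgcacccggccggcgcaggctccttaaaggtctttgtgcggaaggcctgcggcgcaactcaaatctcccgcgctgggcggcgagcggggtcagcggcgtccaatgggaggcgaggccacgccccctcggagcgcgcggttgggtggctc
Rpa1: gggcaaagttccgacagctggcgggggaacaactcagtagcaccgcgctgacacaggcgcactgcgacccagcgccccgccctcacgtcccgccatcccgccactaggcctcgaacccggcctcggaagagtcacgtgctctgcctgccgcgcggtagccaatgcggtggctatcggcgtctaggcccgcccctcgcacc

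In Mcm5 the capitals are a pair of overlapping matches on opposite strands, and in Mcm6 the first run of capitals is again such a pair. The Cdc6 window lies wholly inside the deposited gene span, which starts at 98907801. The letters found for Lig1, Mcm7 and Uhrf1 likewise lie in RefSeq promoters inside the deposited gene spans. As a check of start sites, the end of each promoter sequence, past the start site, was sought in GENCODE transcripts of its gene. It was found for 32 of the 39 member promoters, but not for those of Mcm5, Mcm6 and Rpa1. The 13 genes with E2F letters were Cdc6, Cdt1, Gins3, Lig1, Mcm3, Mcm5, Mcm6, Mcm7, Orc1, Pola1, Pold1, Rfc3 and Uhrf1. Their median log2 fold change in KO was 0.89 against WT replicate 2 and 2.19 against WT replicate 1. For the 20 genes without these letters the medians were 0.65 and 1.30. The ranges overlapped widely, from 0.27 to 1.40 with the letters and from −0.0095 to 2.11 without them, and no test was made.

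As a whole, replication genes were higher in both KO libraries than in WT replicate 2, and lowest in WT replicate 1. Their summed level, in CPM of the library total, came to 207.8 for WT replicate 1 and 808.9 for WT replicate 2, and to 1425 and 1415 for the KO libraries. KO replicates thus lay close together, and their mean was 1.76 times WT replicate 2 and 6.83 times WT replicate 1. With TMM factors, a scaling that allows for a few genes taking many reads, the same sums were 405.1, 689.7, 1119 and 1094 CPM, and the KO mean was 1.6 times WT replicate 2 and 2.73 times WT replicate 1. Within the KO pair, single members differed by a median of 1.065-fold and at most 1.31-fold. Between the WT libraries the median member was 1.67-fold higher in replicate 2, on the scale of CPM with TMM factors, which is used for the levels of single genes below. All 39 members passed the filter on low counts, although 8 had under 20 reads in WT replicate 1.

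**Figure D1:**
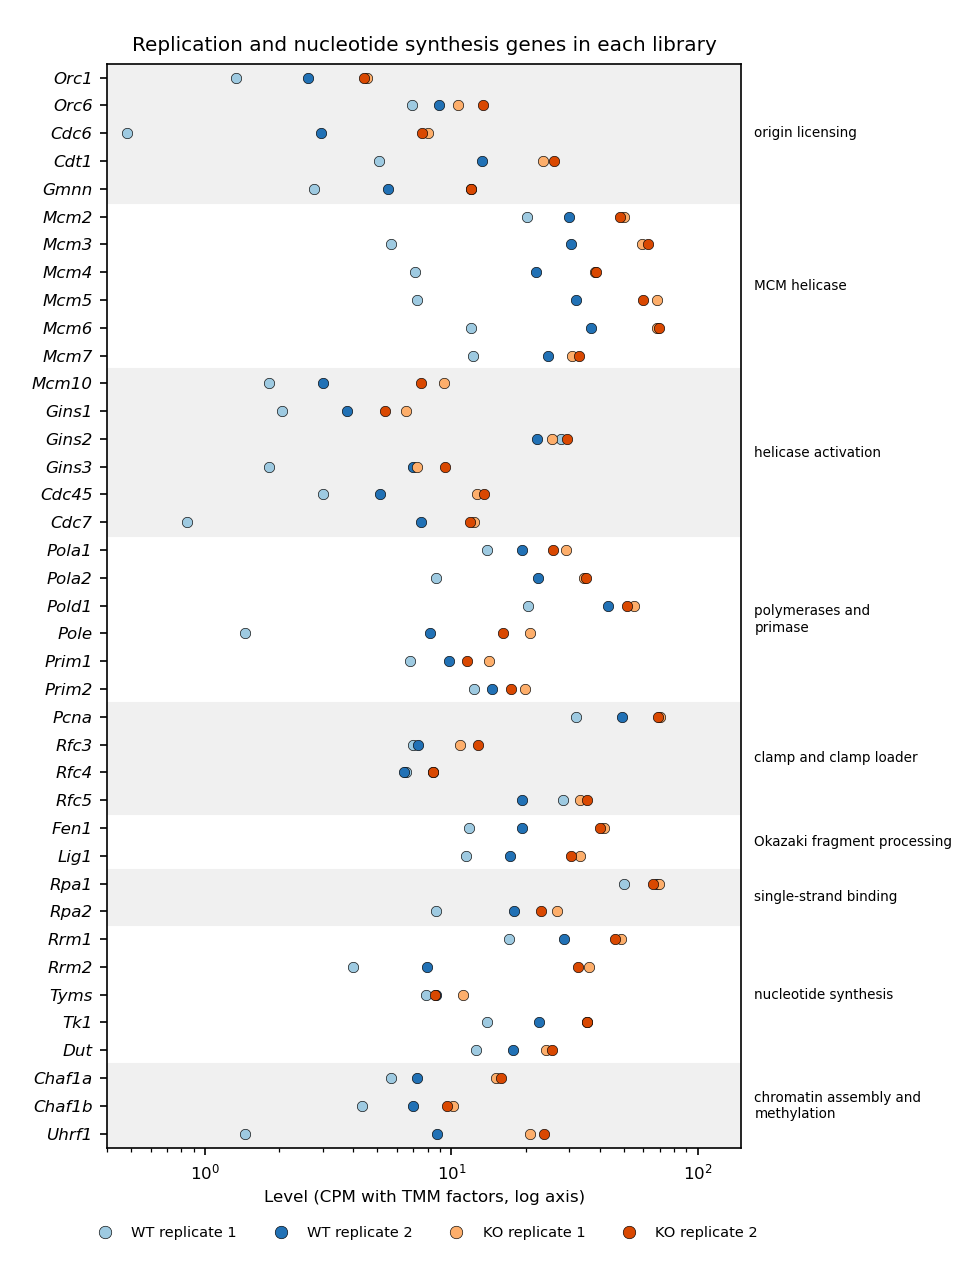
Level of each of the 39 genes in each of the 4 libraries (CPM with TMM factors, log axis), grouped by role. Each point is 1 library. The 2 KO points lie close together. They lie above both WT points for 36 of the 39 genes, against 34.3% of all genes tested. Gins2, Rpa1 and Tyms are the exceptions.

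Each WT library was compared with the KO pair, and both together. With both WT libraries, 0 of 39 members passed an adjusted p of 0.05 in edgeR's quasi-likelihood test with Benjamini-Hochberg adjustment, in a fit that called 1.04% of 20695 genes higher and 2.18% lower. All 39 fold changes were positive there, with a median log2 fold change of 1.01 against 0.01 over all genes, and 12 had an unadjusted p under 0.05. Over all genes tested, 50.5% were positive and 10.5% were higher with an unadjusted p under 0.05. DESeq2 called 6 of 39 higher (Rrm2, Cdc45, Mcm10, Fen1, Chaf1a and Gmnn), against 6.4% of all genes. The authors' deposited table, which lists 5511 genes with an unadjusted p under 0.05, holds 11 of the 39 members, all with positive log2 fold changes. The count table has 38087 genes. How many of the 5511 had positive log2 fold changes was not counted here. In that authors' deposited table Rrm2 stands at 2.60, Mcm10 at 1.89 and Cdc45 at 1.84. Rfc4, with the smallest unadjusted p of the 11, stands at 0.53 and Prim2 at 0.99. In edgeR neither Rfc4 nor Prim2 was called against WT replicate 2. Both KO libraries lay above both WT libraries for 36 of 39 members, against 34.3% of all genes tested. By CPM of the library total this was so for 39 of 39, against 51.0% of all genes.

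Against WT replicate 2 alone, 31 of 39 members rose and 0 fell, where 20.9% of 21844 genes were called higher and 22.8% lower. The median log2 fold change was 0.70, against 0.0045 over all genes, and 11 members were over 2-fold higher. Against WT replicate 1 alone, 35 rose and 0 fell, where 32.3% of 21327 genes were called higher and 32.5% lower, with a median of 1.46 against 0.06. These comparisons share the KO libraries. Each of these fits takes its spread from the KO pair alone, so its p-values say nothing of the spread among WT samples. Adjusted p-values below come from edgeR and, unless another is named, from the comparison with WT replicate 2.

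**Figure D2:**
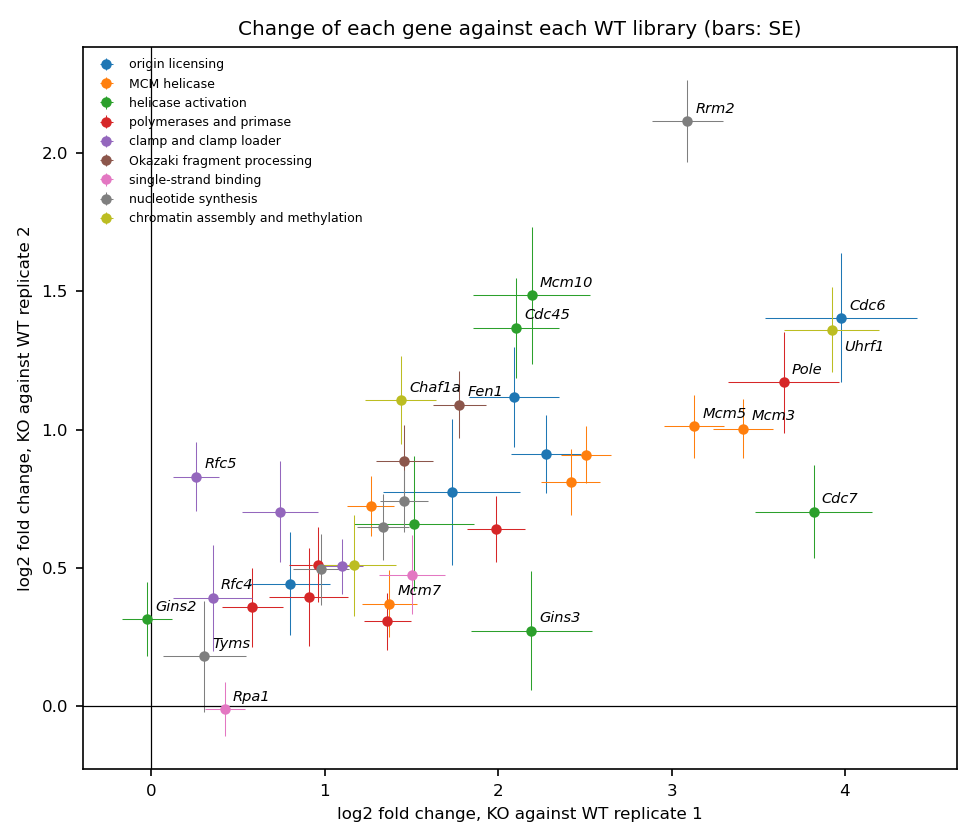
Log2 fold change of each gene in KO against WT replicate 1 (horizontal) and against WT replicate 2 (vertical), with standard errors, coloured by role. Both axes share the KO libraries. Rrm2 stands highest on the vertical axis at 2.11, and Rpa1 lies lowest at −0.0095. Gins2 lies furthest left at −0.024.

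Origin licensing genes were higher in KO, with 4 of 5 called against WT replicate 2 and 5 of 5 against WT replicate 1. Over all genes, 20.9% and 32.3% were called higher in these comparisons, and the same shares apply to each role below. Cdc6, the ATPase that recruits the helicase ring to origins, measured 0.483 and 2.96 CPM in the WT libraries and 7.998 and 7.63 in the KO libraries. Its log2 fold change was 1.40 against WT replicate 2 (SE 0.23, adjusted p = 0.00040) and 3.98 against WT replicate 1, which had only 4 reads. Gmnn encodes geminin, which binds Cdt1 and blocks a second round of licensing, and it rose together with its target. Its levels were 2.78 and 5.53 CPM in the WT libraries and 11.97 and 11.98 in the KO libraries (1.12, SE 0.18, adjusted p = 0.00032). Cdt1 measured 5.07 and 13.3 CPM in the WT libraries and 23.6 and 26.1 in the KO libraries (0.91, SE 0.14). Its whole span lies within the gene model Gm20388 on the same strand, which had 162 times its reads. Some of the reads of Cdt1 may thus belong to that model. Orc6, a subunit of the origin recognition complex, had the smallest value, with 6.88 and 8.92 CPM in the WT libraries and 10.6 and 13.4 in the KO libraries. Its log2 fold change of 0.44 missed the threshold (SE 0.19, adjusted p = 0.0747). The other subunit, Orc1, had a value of 0.77 (adjusted p = 0.0327), which DESeq2 did not call (adjusted p = 0.349), and 63.3% of its span is shared with the opposite-strand gene Gm12743. That gene had 10, 63, 101 and 138 reads where Orc1 had 11, 55, 90 and 115 (WT replicates 1 and 2, then KO), so the reads may not be Orc1's own.

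The genes of the helicase ring all rose: 6 of 6 from Mcm2 to Mcm7 were called against each WT library. Of all genes, 20.9% were called higher against WT replicate 2 and 32.3% against WT replicate 1. Their median log2 fold change was 0.86 against WT replicate 2 and 2.46 against WT replicate 1. Mcm5 measured 7.25 and 32.0 CPM in the WT libraries and 68.3 and 60.2 in the KO libraries (1.01, SE 0.12, adjusted p = 1.9e-05). Mcm3 measured 5.68 and 30.6 CPM in the WT libraries and 59.4 and 62.9 in the KO libraries (1.003, SE 0.11, adjusted p = 1.1e-05). Both genes were about 2-fold above WT replicate 2, with no overlap between groups. Mcm7 had the smallest value against WT replicate 2, with 12.2 and 24.8 CPM in the WT libraries and 30.9 and 32.9 in the KO libraries (0.37, SE 0.12, adjusted p = 0.0271), and it was not called by DESeq2 (adjusted p = 0.277). Mcm2, Mcm4 and Mcm6 had values of 0.72, 0.81 and 0.91.

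Because the 6 subunits form 1 ring, their reads were also divided within each library, which needs no scaling between libraries. Mcm2 took 31.5% of the 534 ring reads in WT replicate 1 (exact 95% interval 27.5 to 35.6), 17.0% in WT replicate 2 (15.8 to 18.3), and 15.9% and 15.5% in KO. Mcm7 took 18.9% and 14.1% in WT and 9.80% and 10.5% in KO, where the KO intervals end at 10.6% and 11.2% and that of WT replicate 2 starts at 13.0%. Mcm3 took 8.80% and 17.4% in WT and 18.8% and 20.13% in KO. Mcm4 kept nearly the same share in every library, from 11.1% to 12.5%. WT replicate 1 therefore differed from the other libraries in the makeup of its ring reads and not only in their number. These intervals cover counting error only.

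**Figure D3:**
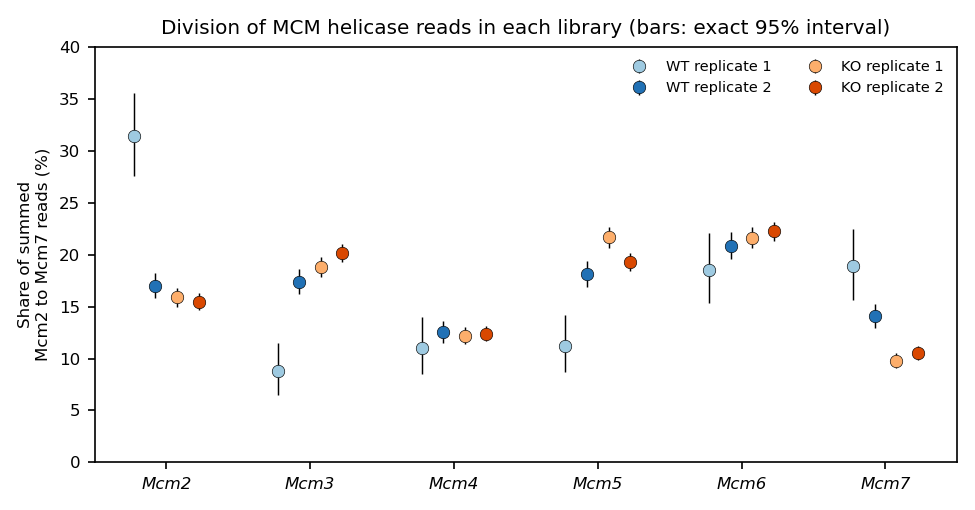
Share of the summed Mcm2 to Mcm7 reads that each gene takes (vertical axis, percent) in each library, with exact 95% binomial intervals. WT replicate 1 stands apart for Mcm2 (31.5%) and Mcm3 (8.80%), and both KO libraries lie below both WT libraries for Mcm7.

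Among genes that turn the loaded ring into a moving helicase, 4 of 6 were called against WT replicate 2 and 5 of 6 against WT replicate 1. The shares of all genes called higher were 20.9% and 32.3%. Mcm10, which bridges the helicase to polymerase alpha, measured 1.81 and 3.005 CPM in the WT libraries and 9.36 and 7.51 in the KO libraries (1.49, SE 0.25, adjusted p = 0.00041). Cdc45, a core subunit of the active helicase, measured 3.02 and 5.10 CPM in the WT libraries and 12.7 and 13.6 in the KO libraries (1.37, SE 0.18, adjusted p = 6.7e-05). Both were over 2.5-fold above WT replicate 2. Cdc7, the kinase that triggers origin firing, had a value of 0.70 against WT replicate 2, which DESeq2 did not call (adjusted p = 0.124), and 3.82 against WT replicate 1, where it had only 7 reads.

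Gins1, Gins2 and Gins3 all had positive values against WT replicate 2. Against WT replicate 1, Gins1 and Gins3 had values of 1.51 and 2.19, unlike Gins2. Gins1 had a value of 0.66 (SE 0.245, adjusted p = 0.0473), which limma-voom (adjusted p = 0.0545) and DESeq2 (adjusted p = 0.364) did not call. Gins3 measured 1.81 and 6.96 CPM in the WT libraries and 7.24 and 9.44 in the KO libraries, and its value of 0.27 was not called (SE 0.21, adjusted p = 0.334). Gins2 measured 27.8 and 22.3 CPM in the WT libraries and 25.7 and 29.4 in the KO libraries. It was the only member below 0 against WT replicate 1, at −0.024 (adjusted p = 0.894). Library totals turned this to 1.32, leaving out genes over 1% of reads together with immunoglobulin genes to 0.012, and no count filter to 0.074. Against WT replicate 2 it had a value of 0.31 (SE 0.13, adjusted p = 0.0794). The Gins2 span lies wholly within Gm20388 and partly within Gse1, both on the opposite strand. Gm20388 had 120 times the reads of Gins2, and Gse1 had 2.54 times.

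Polymerase and primase genes showed smaller differences, with medians of 0.45 against WT replicate 2 and 1.16 against WT replicate 1. In these comparisons 4 of 6 and all 6 were called, where 20.9% and 32.3% of all genes were called higher. Pole, the catalytic subunit of the leading-strand polymerase, measured 1.45 and 8.20 CPM in the WT libraries and 20.8 and 16.2 in the KO libraries (1.17, SE 0.18, adjusted p = 0.00024). Pola2, the regulatory subunit of the priming polymerase, measured 8.70 and 22.4 CPM in the WT libraries and 34.4 and 35.3 in the KO libraries (0.64, SE 0.12, adjusted p = 0.00094). Pole and Pola2 were thus higher in both KO libraries than in either WT library. Pold1, the catalytic subunit of the lagging-strand polymerase, was called by edgeR with 20.5 and 43.2 CPM in the WT libraries and 55.0 and 51.6 in the KO libraries (0.31, SE 0.10, adjusted p = 0.0313) but not by DESeq2 (adjusted p = 0.298). Pola1, the only member on the X chromosome, had a value of 0.51 (adjusted p = 0.00875), and DESeq2 did not call it (adjusted p = 0.124). The primase subunits Prim1 and Prim2 had values of 0.40 and 0.36 and missed the threshold (adjusted p = 0.0918 and 0.0640).

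The sliding clamp rose, and its loader was uneven. Pcna, the ring that tethers polymerases to DNA, measured 32.1 and 49.3 CPM in the WT libraries and 70.5 and 68.9 in the KO libraries (0.51, SE 0.10, adjusted p = 0.00137). Rfc5, a small subunit of the clamp loader, measured 28.4 and 19.4 CPM in the WT libraries and 33.2 and 35.4 in the KO libraries. It rose against WT replicate 2 (0.83, SE 0.13, adjusted p = 0.00019) and was not called against WT replicate 1 (0.26, adjusted p = 0.103). Rfc3 measured 7.005 and 7.30 CPM in the WT libraries and 10.8 and 12.8 in the KO libraries (0.70, SE 0.18, adjusted p = 0.00814), with a value of 0.74 against WT replicate 1, and DESeq2 did not call it against WT replicate 2 (adjusted p = 0.142). Rfc4 measured 6.52 and 6.44 CPM in the WT libraries and 8.45 and 8.40 in the KO libraries and was not called against either (0.39 and 0.35, adjusted p = 0.122 and 0.190).

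Okazaki fragment processing genes both rose. Fen1, the nuclease that trims RNA primers, measured 11.8 and 19.3 CPM in the WT libraries and 41.8 and 40.2 in the KO libraries (1.09, SE 0.12, adjusted p = 1.4e-05). Gm10143 on the opposite strand shares 64.6% of the Fen1 span and had 92, 361, 770 and 966 reads where Fen1 had 98, 405, 831 and 1043. Reads of Fen1 and Gm10143 cannot be told apart without strand, and how strand was handled is not given in the sources used here. Lig1, the ligase that seals the nicks, measured 11.5 and 17.3 CPM in the WT libraries and 33.3 and 30.5 in the KO libraries (0.89, SE 0.13, adjusted p = 0.00016). Of the single-strand binding genes, Rpa2 was called against each WT library and Rpa1 against WT replicate 1 alone. Rpa1, the large subunit of replication protein A, which also serves repair, measured 49.999 and 68.4 CPM in the WT libraries and 69.9 and 65.7 in the KO libraries. Its value was −0.0095 against WT replicate 2 (SE 0.0985, adjusted p = 0.949), turning to 0.12 with library totals, and 0.42 against WT replicate 1 (adjusted p = 0.00584). Rpa2 measured 8.70 and 18.0 CPM in the WT libraries and 26.9 and 23.0 in the KO libraries (0.48, SE 0.14, adjusted p = 0.0171), and DESeq2 did not call it (adjusted p = 0.187). Against WT replicate 1 the value of Rpa2 was 1.503 (adjusted p = 1.06e-05).

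Nucleotide synthesis genes held both the member with the highest value against WT replicate 2 and one that was called against neither WT library. Rrm2, the S-phase subunit of ribonucleotide reductase, measured 3.99 and 7.97 CPM in the WT libraries and 36.1 and 32.8 in the KO libraries. Its log2 fold change was 2.11 against WT replicate 2 (SE 0.15, adjusted p = 2.9e-07), 3.09 against WT replicate 1 and 2.51 against both (SE 0.41, adjusted p = 0.0635). Rrm1, the large subunit of the same enzyme, measured 17.2 and 28.6 CPM in the WT libraries and 49.04 and 46.2 in the KO libraries (0.74, SE 0.11, adjusted p = 0.00019). Tyms, thymidylate synthase, measured 7.85 and 8.68 CPM in the WT libraries and 11.2 and 8.55 in the KO libraries, where the groups overlap (0.18, SE 0.20, adjusted p = 0.506). Tk1 and Dut, the thymidine salvage kinase and the dUTPase that feeds thymidylate synthesis, rose by 0.65 and 0.49 on the log2 scale. The Tk1 span lies wholly within Gm20708 on the opposite strand, which had 8.25 times its reads. Dut was not called by DESeq2 (adjusted p = 0.153).

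Within the summed reads of these 5 nucleotide genes, Rrm2 took 7.19% and 9.29% in WT and 23.1% and 22.04% in KO. The exact 95% interval of WT replicate 2 ended at 10.7%, and the KO intervals started at 21.7% and 20.7%. Rrm1 held its share, at 30.9% and 33.3% in WT and 31.4% and 31.1% in KO. Tyms took 14.2% and 10.1% in WT and 7.15% and 5.76% in KO.

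Chromatin genes that act behind the fork rose against each WT library, 3 of 3 in both comparisons. Of all genes, 20.9% were called higher against WT replicate 2 and 32.3% against WT replicate 1. Uhrf1, which directs maintenance DNA methylation to new DNA, measured 1.45 and 8.73 CPM in the WT libraries and 20.9 and 23.7 in the KO libraries (1.36, SE 0.15, adjusted p = 1.8e-05). Chaf1a, the large subunit of chromatin assembly factor 1, measured 5.68 and 7.25 CPM in the WT libraries and 15.2 and 15.8 in the KO libraries (1.11, SE 0.16, adjusted p = 0.00013). Chaf1b, its partner, measured 4.35 and 6.96 CPM in the WT libraries and 10.2 and 9.63 in the KO libraries (0.51, SE 0.18, adjusted p = 0.0400). Chaf1a and Uhrf1 were over 2-fold above WT replicate 2, whereas Chaf1b was not, and DESeq2 did not call it (adjusted p = 0.372).

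Further genes of the same pathway were counted by list against WT replicate 2, where 20.9% of all genes rose and 22.8% fell. Of 15 other licensing and firing genes, 6 rose and 1 fell against WT replicate 2, with a median of 0.25. Topbp1, needed to bring Cdc45 to the helicase, rose by 0.82 (adjusted p = 6.1e-05), and Dbf4, the activator of Cdc7, by 0.996 (adjusted p = 0.00020). Orc5, another origin recognition subunit, fell by 0.37 (adjusted p = 0.0112). Of 15 other polymerase, clamp and processing genes, 5 rose and 1 fell, with a median of 0.27. Dna2, a nuclease of lagging-strand processing, rose from 4.23 and 6.25 CPM in WT to 21.3 and 22.2 in KO (1.80, adjusted p = 1.7e-06), and Rfc2, another loader subunit, rose by 1.005 (adjusted p = 7.1e-06). Pole3, a histone-fold subunit of polymerase epsilon, fell by 0.61 (adjusted p = 0.0023). Of 9 fork checkpoint genes, 5 rose and 0 fell. Among them was Atrip, the partner of the kinase ATR, with a value of 0.84 (adjusted p = 6.98e-05).

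Of 29 other nucleotide synthesis genes, 8 rose and 4 fell, where 20.9% and 22.8% of all genes did. Ppat, the first enzyme of purine synthesis, rose from 21.5 and 27.0 CPM in WT to 64.9 and 69.7 in KO (1.32, adjusted p = 1.2e-06). Samhd1, which degrades deoxynucleotides and is abundant in myeloid cells, rose from 74.2 and 250 CPM to 860 and 786 (1.73, adjusted p = 2.7e-05). Summed reads of 12 macrophage and monocyte genes moved with it, from 170.7 and 707.5 in the WT libraries to 3035 and 2887 in the KO libraries (CPM of library totals), and their part in the Samhd1 value was not tested. Dctd, deoxycytidylate deaminase, fell by 1.95 (adjusted p = 1.3e-05) and Impdh1, a purine synthesis enzyme, by 0.86 (adjusted p = 4.0e-05). Of 8 other chromatin replication genes, 4 rose and 0 fell, among them the maintenance methyltransferase Dnmt1 (0.84, adjusted p = 4.1e-05) and the remodeller Hells (1.26, adjusted p = 6.1e-05).

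Upstream of replication, 11 of 19 G1/S control genes rose against WT replicate 2 and 1 fell, where 20.9% and 22.8% of all genes did. Mybl2, an activator of cell cycle promoters, rose from 2.05 and 3.96 CPM in WT to 14.4 in each KO library (1.87, adjusted p = 5.4e-06). E2f8, an E2F repressor that is itself induced in S phase, rose from 1.45 and 2.48 CPM to 10.3 and 11.98 (2.17, adjusted p = 9.9e-06). Ccnd3, a D-type cyclin of lymphocytes, measured 74.8 and 201 CPM in the WT libraries and 100 and 93.2 in the KO libraries. It fell against WT replicate 2 by 1.05 (adjusted p = 1.0e-05) and rose against WT replicate 1 by 0.35 (adjusted p = 0.0142), where T and B cell reads were few.

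Of 15 genes that restrain the cell cycle, 7 rose and 3 fell against WT replicate 2, where 20.9% and 22.8% of all genes did. Cdkn1a, which encodes p21, rose from 10.4 and 15.3 CPM in WT to 74.6 and 62.7 in KO (2.17, adjusted p = 1.1e-07). Cdkn2a, the p16 and p19 locus, rose from 1.33 and 2.72 CPM to 15.8 and 14.1 (2.46, adjusted p = 1.3e-06). Tob1, an antiproliferative gene, fell from 101 and 84.8 CPM to 5.58 and 7.09 (−3.72, adjusted p = 1.2e-09), and Cdkn1c, which encodes p57, from 6.04 and 4.77 CPM to 0.654 and 0.539 (−3.00, adjusted p = 1.7e-05). With both WT libraries in the edgeR fit, 1 of the 15 was called higher (Cdkn1a, adjusted p = 0.0483). In the same fit 2 were called lower (Tob1 and Cdkn1c, adjusted p = 0.0416 and 0.0475). None of the 39 replication genes passed the threshold there. Rrm2 lay near Cdkn1a, with log2 fold changes of 2.51 and 2.41, and just missed it (adjusted p = 0.0635).

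**Figure D4:**
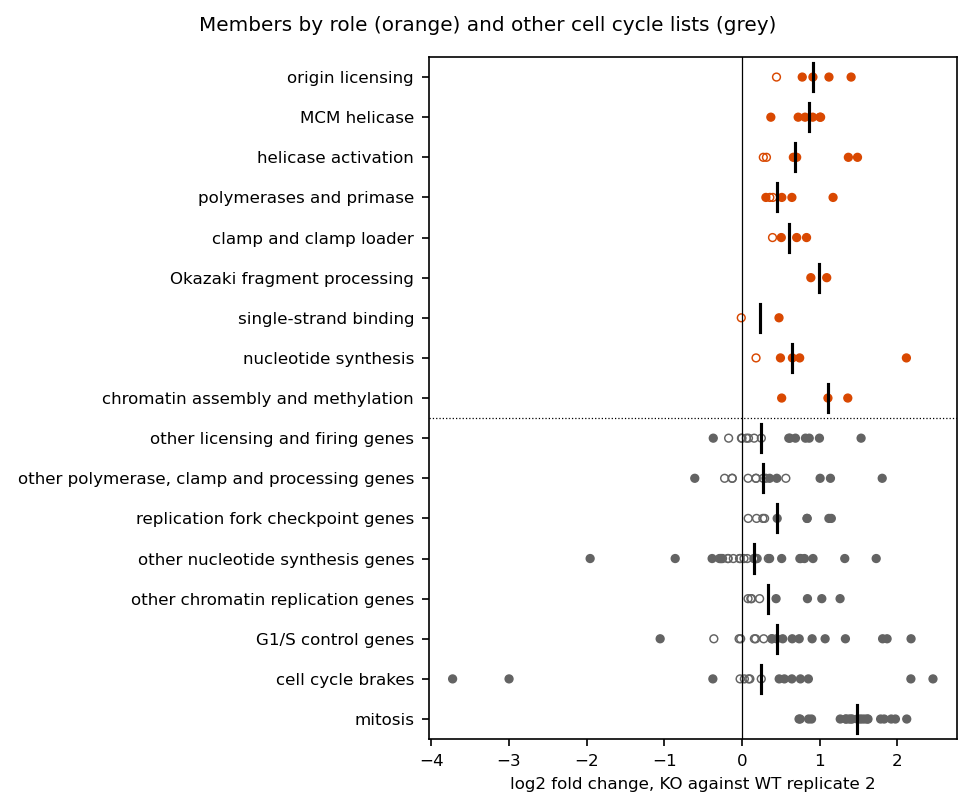
Log2 fold change in KO against WT replicate 2 for the 39 genes by role (orange) and for other cell cycle lists (grey). Each point is 1 gene, filled where its adjusted p is under 0.05, and black bars are list medians. The replication groups lie between −0.0095 and 2.11, all 21 mitosis genes lie above 0.7, and the cell cycle brakes spread from −3.72 to 2.46.

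Mitosis genes differed more than replication genes did. All 21 rose against WT replicate 2, with a median of 1.48, where the 39 replication genes had 0.70, and the medians against WT replicate 1 were 3.09 and 1.46. Both lists were read in the same libraries, and no test was made between them. Within a library, replication reads amounted to 6.23 times the mitosis reads in WT replicate 1 (95% counting interval 5.69 to 6.84) and 3.604 times in WT replicate 2 (3.48 to 3.73). In KO they amounted to 2.11 (2.06 to 2.16) and 1.89 times (1.86 to 1.93). The ratio was therefore lower in both KO libraries than in either WT library, on a measure that does not depend on scaling.

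Relative to lymphocyte genes the picture depended on the reference. Replication reads were 0.322 times the pan-B cell reads in WT replicate 2 and 0.367 and 0.372 times in KO. Against T cell reads they were 0.496 times in WT replicate 2 and 1.11 times in each KO library. In WT replicate 1, with few lymphocyte reads, the ratios were 3.85 and 10.7. From WT replicate 2 to the KO mean, pan-B cell reads were 1.53 times as many, T cell reads 0.786 times, replication reads 1.76 times, mitosis reads 3.17 times and macrophage reads 4.18 times. Which cells carried the replication reads was not tested.

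**Figure D5:**
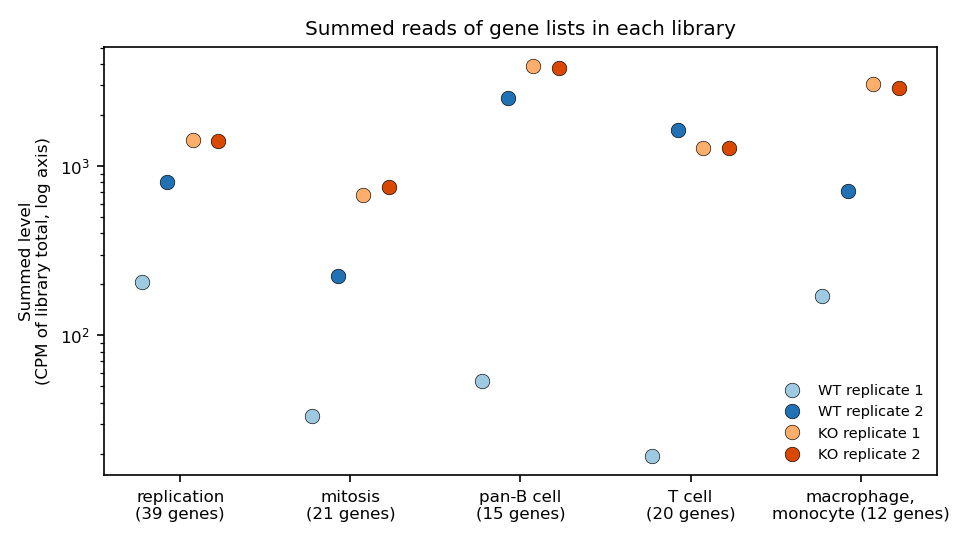
Summed level of 5 gene lists in each library (CPM of the library total, log axis). Replication genes stand at 207.8, 808.9, 1425 and 1415 CPM in WT replicates 1 and 2 and KO replicates 1 and 2, while T cell genes are highest in WT replicate 2 at 1631.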

How the data were processed

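Per the labels, whole RNA of each sample was freed of ribosomal RNA and made into Ion Total RNA-Seq libraries. The authors deposited whole-number read counts per gene, and the listed length of each member equals its genomic span, so intronic reads may be included. The submitters' processing notes name mm10 and DESeq2 1.62 without a role; no aligner or counter is given in the sources used here. Also deposited were log2 values relative to each gene's median over the libraries, and a table of log2 fold changes with unadjusted p-values for KO against WT. A further 8 columns of coverage per library were not used here.

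The counts of all genes went into the quasi-likelihood test of edgeR 4.0.16, run under R 4.3.3 (TMM scaling, genes kept by filterByExpr at min.count 10 and min.total.count 15), with Benjamini-Hochberg adjustment calling adjusted p-values under 0.05. The SE of a log2 fold change was taken as its size over the square root of F. The fit was tested on simulated counts, where the fit with both WT libraries missed most changes of 2-fold and 4-fold. A gene it did not call may therefore still differ. The members and lists were chosen with earlier results of these data known, so the lists carry no test of their own, only counts and medians. Of 260 list entries, 260 matched a gene. Values in full were given for the 2 largest and 1 smallest change in each role and for genes whose direction differed between WT libraries; of other pathway genes, up to 2 in each direction with the smallest p. Members given beside these were chosen after their values were seen. Overlapping genes were read from the deposited coordinates. Alternatives were DESeq2 size factors, library totals, other count filters, DESeq2 1.42.0, limma-voom 3.58.1, a replicate block and leaving out each library. A search for protein motifs was planned and not run, because no protein table was used here. A count of 0 allows up to 3 reads. The values of 1 pathway gene that the rule names are not reported here.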

Additional observations from a re-analysis of the deposited data

How the results depend on the processing

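With both WT libraries, the count of members called was 0 in edgeR under DESeq2 size factors, library totals, the stricter filter and without genes over 1% of reads and immunoglobulin genes, and 0 with limma-voom. It was 1 with no count filter (Rrm2) and 6 with DESeq2, which called 6.4% of all genes higher against 1.04%. Library totals, the replicate block and leaving out either KO library called 0 genes of all tested, so their 0 is not particular to the members. Leaving out 1 library gave 0 to 35 calls, with 31 without WT replicate 1, 35 without WT replicate 2 and 0 without either KO library, where 1 member in each case had an unadjusted p under 0.05; a lone sample is assumed to vary like the other group. The median there ranged from 0.70 to 1.46. Numbers in the labels pair the replicates only by name: the differences between replicates of WT and KO correlated at −0.11 across genes. The replicate block gave 0 calls and a median of 1.10, and the crossed pairing, added after seeing the data, 0 calls as well. Library totals, which shift the median of all genes to 0.60, 0.13 and 1.39 in the 3 comparisons (both, WT replicate 2, WT replicate 1), moved the member medians to 1.47 with both, 0.83 against WT replicate 2 and 2.80 against WT replicate 1. Against WT replicate 1 the median was 1.56 with no count filter, 1.39 with the stricter one, and 1.42 to 1.53 with 1 KO library left out. Against WT replicate 2 it was 0.69 to 0.74 with 1 KO library left out. Counts of calls against WT replicate 2 ranged from 21 (DESeq2) to 36 (library totals), where 12.6% and 26.9% of all genes were called higher. Against WT replicate 1 they ranged from 30 (DESeq2) to 39 (library totals), where 21.7% and 70.8% of all genes were. Signs turned for Rpa1 against WT replicate 2 (0.12 with library totals, 0.00061 without genes over 1% and immunoglobulin genes, 0.009959 with no filter) and for Gins2 against WT replicate 1 (1.32, 0.012 and 0.074). In the fit of both WT libraries Rpa1 ranged from −0.0095 (without WT replicate 1) to 0.42 (without WT replicate 2) and Gins2 from −0.024 (without WT replicate 2) to 0.31 (without WT replicate 1). Without Rpa1, summed levels were 182.1, 728.6, 1336 and 1330 CPM in WT replicates 1 and 2 and KO replicates 1 and 2. Low counts limit WT replicate 1, where members had 4 to 414 reads.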
